A study of Homo sapiens with 6 samples.

Results

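The genes described here are markers of neuroendocrine cells, read in a colorectal cancer cell line sorted by the surface protein CD44. The set of 10 genes was chosen by symbol: CHGA, CHGB, SCG2, SCG3, SCG5, SYP, SNAP25, PCSK1, PCSK2 and ENO2. The platform annotation gave 8 of them a probe set of their own, 10 probe sets in all, among 19775 named genes and 54613 probe sets that were not controls. It named none for PCSK1 and PCSK2, whose expression was not analysed here. COLO-320DM cells, a line from a human colon carcinoma known for neuroendocrine features and extrachromosomal copies of MYC, were sorted into CD44-positive and CD44-negative cells. Total RNA of untreated cells was hybridised to 6 Affymetrix arrays, 3 in each group, labelled 01, 02 and 03 in both. The study concerned tankyrase inhibitors and CD44-positive cells as stem-like cells of the tumour, but no array came from inhibitor-treated cells. All arrays are of 1 cell line. Nothing in the labels gives the replicates as separate cultures or sorts, so a p-value here speaks for the spread among these 6 arrays, part or all of which may be technical.

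Neuroendocrine cells store peptide hormones in dense-core granules. Granins such as chromogranin A help to form and fill these granules, prohormone convertases cut the hormones out of their precursors inside them, and SNARE proteins such as SNAP-25 fuse the granule with the plasma membrane on demand. In the gut, enteroendocrine cells use this pathway, and pathologists stain for chromogranin A, synaptophysin and neuron-specific enolase to recognise neuroendocrine tumours.

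Promoter windows from RefSeq (GRCh38.p14, 250 bases before to 50 after an annotated start) were listed for 7 of the 10 genes, 9 windows in all. CHGB, SCG2 and SNAP25 had none, and PCSK1 and PCSK2, whose expression was not analysed, had 2 each. The cyclic AMP response element, TGACGTCA, is known to drive the promoter of CHGA. It was searched on both strands, together with its shorter core TGACG, which it contains, and a consensus of 21 bases of the RE1 element, which the repressor REST binds. The full element was found in 2 of the 9 windows, that of CHGA and 1 of 2 of PCSK1, and in 1.85% of all 35116 windows. The core was found in 6 of the 9 and in 24.6% of all, and RE1 with at most 6 mismatches in 0 of the 9 and in 1.44% of all. A match is a description of letters and not of binding, which was not measured. Whether matches go with the levels on the arrays was not tested. The last 100 bases before the start are shown for 2 granin genes that were dim on the arrays and for the vesicle gene and the enolase gene that were not, 5′ to 3′ on the gene's strand. Capitals mark the element or its core, and the SYP and ENO2 stretches hold neither.
CHGA, chr14:92923050-92923149, plus strand: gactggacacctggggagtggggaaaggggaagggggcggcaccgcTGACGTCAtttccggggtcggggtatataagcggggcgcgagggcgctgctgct
SCG5, chr15:32641610-32641709, plus strand: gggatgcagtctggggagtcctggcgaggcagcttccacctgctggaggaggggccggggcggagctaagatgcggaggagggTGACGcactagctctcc
SYP, chrX:49200194-49200293, minus strand: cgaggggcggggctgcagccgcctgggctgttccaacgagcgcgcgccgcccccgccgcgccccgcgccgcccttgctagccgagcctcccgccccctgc
ENO2, chr12:6914480-6914579, plus strand: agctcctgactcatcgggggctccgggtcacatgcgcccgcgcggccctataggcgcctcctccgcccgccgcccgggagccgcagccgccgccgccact

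Across all arrays the median intensity lay between 44.9 and 46.5. CD44 itself was at 7.86, 8.12 and 7.11 in the CD44-positive and at 5.41, 5.29 and 4.99 in the CD44-negative arrays (log2 intensity), without overlap. Levels are given throughout as log2 of the deposited intensity, and differences as CD44-positive minus CD44-negative. A gene was called dim when its mean lay under 5.12, the 30th percentile of all gene means, and dim genes were left out of the main test. Of the colonic and epithelial markers 8 of 11 lay above that limit, with EPCAM, CDH1 and KRT19 under it. Same-numbered arrays deviated together from their group means, so the replicate number was also used as a block, which compares the arrays in 3 pairs.

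The granule granins were dim in both sorts. All 5 granin genes, CHGA, CHGB, SCG2, SCG3 and SCG5, had means under the limit, while SYP, SNAP25 and ENO2 lay above it. The limit says that a level is among the lowest on these arrays, not that the RNA is absent, and values this low can understate a difference. In RNA from a whole sorted population, fewer cells with a transcript and less of it per cell cannot be told apart.

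**Figure D1:**
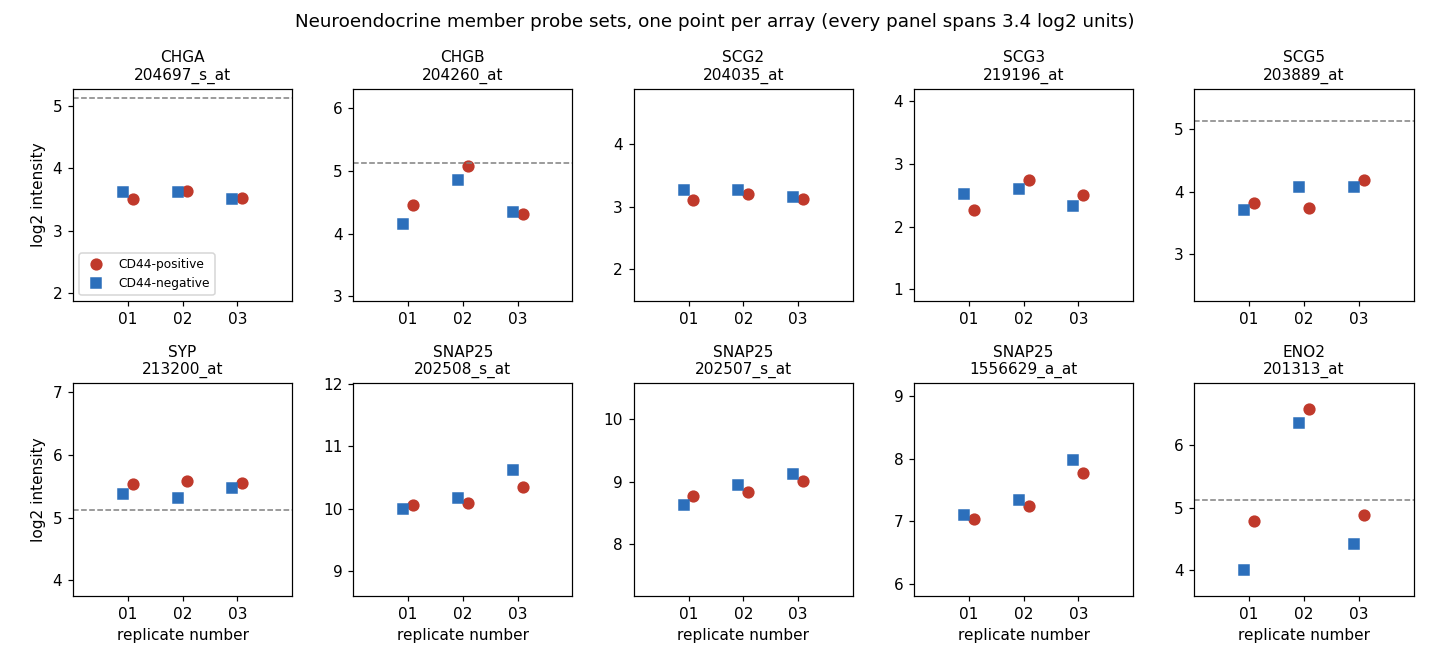
Log2 intensity of the 10 probe sets (y axis) by replicate number (x axis), with a red circle for each CD44-positive and a blue square for each CD44-negative array; the dashed line is the dim limit of 5.12 where it falls in the panel. ENO2 stands highest in both arrays numbered 02, and the 3 SNAP25 probe sets stand highest in both arrays numbered 03.

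CHGA (probe set 204697_s_at), which encodes chromogranin A, the acidic core protein of dense-core granules, was at 3.51, 3.64 and 3.52 in the CD44-positive arrays 01, 02 and 03. In the CD44-negative arrays it was at 3.62, 3.62 and 3.50. The groups overlapped, and all 6 values lay within 0.14 of each other. In the fit over all 19775 genes without the dim limit, CHGA differed by -0.021 (95% confidence interval -0.23 to 0.19).

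CHGB (probe set 204260_at), the gene of the related chromogranin B, was at 4.46, 5.08 and 4.32 in the CD44-positive and at 4.15, 4.86 and 4.35 in the CD44-negative arrays. The groups overlapped, and in both sorts array 02 was the highest. Its difference was 0.17 (95% interval -0.36 to 0.70). SCG2 (probe set 204035_at), the gene of secretogranin II, a precursor of secretoneurin, lay between 3.10 and 3.21 in the CD44-positive and between 3.16 and 3.28 in the CD44-negative arrays. It was lower in the CD44-positive array of each of the 3 pairs, by amounts from 0.034 to 0.17, and its interval was -0.29 to 0.11.

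SCG3 (probe set 219196_at), whose product secretogranin III tethers granins to the granule membrane, was at 2.27, 2.74 and 2.50 against 2.52, 2.60 and 2.34. It differed by 0.019 (-0.29 to 0.33). SCG5 (probe set 203889_at), the gene of 7B2, a chaperone that prohormone convertase 2 needs to mature, was at 3.82, 3.74 and 4.19 against 3.70, 4.08 and 4.07, a difference of -0.037 (-0.38 to 0.31). The groups overlapped in both genes. None of the 5 dim genes was called for the CD44 sort in the fit without the dim limit by limma (adjusted p = 1.00 each), in which 2 of 19775 genes, 0.0101%, passed. With the replicate block their adjusted p values ran from 0.817 for CHGB to 0.993 for SCG3.

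SYP (probe set 213200_at) encodes synaptophysin, a membrane protein of small clear vesicles. It was at 5.53, 5.59 and 5.55 in the CD44-positive arrays and at 5.38, 5.31 and 5.47 in the CD44-negative arrays, just above the dim limit in all 6. Every CD44-positive array lay above every CD44-negative array, and SYP was the only 1 of the 3 tested genes of the set without overlap between the groups. Among all 13842 genes tested, 5.43% did not overlap. The difference was 0.17 ± 0.09 (SE), 1.13-fold, with a 95% interval of -0.024 to 0.37, and did not pass limma's test (adjusted p = 1.00). It was positive in 3 of 3 pairs, at 0.15, 0.29 and 0.079, and with the block the interval was 0.0012 to 0.34 (adjusted p = 0.662).

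SNAP25, the SNARE protein gene that works at synapses and in granule release, was the member far above the limit. Its probe set with the highest mean, 202508_s_at, read 10.05, 10.09 and 10.34 in the CD44-positive and 10.00, 10.17 and 10.61 in the CD44-negative arrays. The groups overlapped, with CD44-negative 03 the highest and CD44-negative 01 the lowest of the 6. The difference was -0.10 ± 0.16 (SE), with a 95% interval of -0.48 to 0.28 (limma, adjusted p = 1.00). Without CD44-negative 03 its sign turned, to 0.077.

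The other 2 SNAP25 probe sets gave differences of -0.027 (202507_s_at) and -0.12 (1556629_a_at). The first read 8.77, 8.83 and 9.02 against 8.63, 8.95 and 9.12. The second read 7.03, 7.25 and 7.77 against 7.10, 7.33 and 7.99. The groups overlapped in both, and in all 3 probe sets the pair of arrays numbered 03 was above the other 4 arrays. The suffixes mark probe sets that match several transcripts, and the platform annotation assigned all 3 to SNAP25.

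ENO2 (probe set 201313_at) encodes neuron-specific enolase, a glycolytic enzyme of neurons and neuroendocrine cells. It was at 4.79, 6.58 and 4.88 in the CD44-positive and at 4.01, 6.36 and 4.43 in the CD44-negative arrays. The groups overlapped widely, with both arrays numbered 02 far above the other 4. The unpaired difference was 0.49 ± 0.66 (SE), with a 95% interval of -1.04 to 2.01 (limma, adjusted p = 1.00). The pairs differed by 0.78, 0.22 and 0.45, higher in the CD44-positive array in 3 of 3, a pattern shared in this direction by 13.7% of all genes tested. With the replicate block the SE was 0.11 and the interval 0.23 to 0.74, with an unadjusted p of 0.00245 but an adjusted p = 0.272 over all genes (limma).

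**Figure D2:**
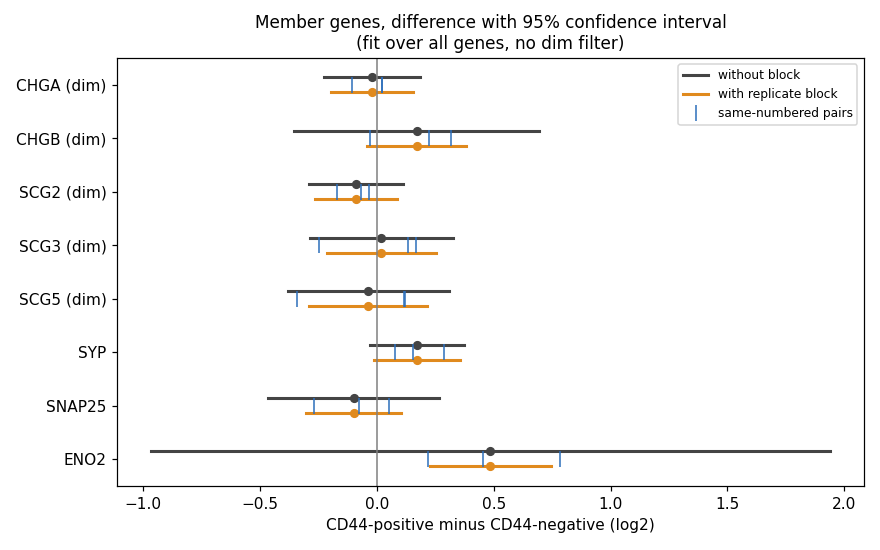
Difference between the CD44 sorts in log2 units (x axis) for the 8 genes with a probe set, from the fit over all 19775 genes; points are estimates, bars 95% confidence intervals without (grey) and with (orange) the replicate block, and ticks the 3 pairs. Every grey interval includes 0, and the orange interval of ENO2, from 0.23 to 0.75 in this fit, does not.

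For the CD44 sort, then, 0 of the 3 tested genes of the set passed over all 13842 genes. Limma called 0 genes there, 0%, and 273, 1.97%, had an unadjusted p under 0.05. CD44 itself, with a mean of 7.70 against 5.23 and no overlap, was thus not called either. Because this test without the block missed the gene used for sorting, its 0 of 3 does not show that the members are alike between the sorts. With the replicate block 0 of the 3 passed, and 8 of all genes did, 0.0578%. At the level of probe sets 0 of the 5 above the limit passed without or with the block, against 0.00318% and 0.0764% of 31403 probe sets. Of the 3 tested genes, 0 had an unadjusted p under 0.05 without and 2 with the block, ENO2 and SYP, where 1037 of all genes, 7.49%, did. The unadjusted p of SYP with the block in limma was 0.0488, but 0.0625 in the fit without the dim limit and 0.0571 in the fit over probe sets.

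The replicate number separated ENO2 far more than the CD44 sort did on the log2 scale. In a model with CD44 status and number, limma's F test asked whether any of the numbers 01, 02 and 03 differed. ENO2 passed (F = 146, adjusted p = 0.00339), and 1430 of all genes did, 10.3% (696 genes without the arrays numbered 02). In 11.1% of all genes both arrays numbered 02 stood above the other 4, and in 12.5% both numbered 03. The numbers 01, 02 and 03 had ENO2 means of 4.40, 6.47 and 4.65, so that 02 was 4.19-fold above 01, a difference of 2.07 with a 95% interval of 1.76 to 2.38. It was 3.52-fold above 03, while 03 exceeded 01 by 0.25 (-0.058 to 0.56). Intervals between numbers are not adjusted for the 3 contrasts of a gene. ENO2 lay above the dim limit in the arrays numbered 02 alone, so it entered the test through them, and the means of 01 and 03 are approximate. In the fit without the dim limit it passed too (adjusted p = 0.00427), among 3.77% of all genes.

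SNAP25 had means of 10.03, 10.13 and 10.48 for the numbers 01, 02 and 03. Number 03 exceeded 01 by 0.45 (95% interval 0.21 to 0.68) and 02 by 0.35 (0.12 to 0.59), and the F test missed the threshold (adjusted p = 0.0537). It passed with the mean of its probe sets (adjusted p = 0.0244), with quantile normalization again (0.0347), with the dim limit at the 50th percentile (0.0326), with a variance trend and robust moderation together (0.00414) and without number 01 (0.0411) or 02 (0.0479). It did not pass with array medians centred (adjusted p = 0.0650), without the dim limit (0.0935) or without number 03 (0.562). Tested as its own feature, probe set 1556629_a_at passed (adjusted p = 0.00763, where 12.1% of probe sets did), with 03 above 01 by 0.81 (0.60 to 1.03) and above 02 by 0.59 (0.37 to 0.80). The other 2 SNAP25 probe sets did not pass in that fit (adjusted p = 0.0545 for 202508_s_at and 0.0962 for 202507_s_at).

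SYP did not differ detectably by number, at 5.46, 5.45 and 5.51 (adjusted p = 0.827). Among the dim granins, read in the fit without the limit, CHGB passed limma's F test (adjusted p = 0.0337), where 3.77% of all genes did. Its mean in 02 was above that in 01 by 0.67 (0.41 to 0.93) and above that in 03 by 0.64. CHGA, SCG2, SCG3 and SCG5 had adjusted p values of 0.637, 0.732, 0.292 and 0.231. ENO2 and CHGB thus had their highest arrays in number 02 and SNAP25 in number 03, in both sorts. CHGA and SCG3, which were not called, also had both arrays numbered 02 above the others. For CHGA the margin was slight, 3.6222 in CD44-negative 02 against 3.6168 in CD44-negative 01. Of the genes above the dim limit 11.1% had this order, and its share among dim genes was not counted.

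Among markers of other cells, the collagen gene COL3A1 was lowest in 02, with means of 11.12, 9.74 and 11.23 (adjusted p = 0.00406). It was 1 of 9 fibroblast markers with a probe set, 6 of them above the dim limit and LUM, PDGFRA and FAP under it, and 0 of the other 5 above the limit passed over the numbers. The summed intensity of the 9 was 2076 to 3719 in 01, 1214 to 1528 in 02 and 2343 to 3573 in 03, most of it from COL3A1, and the sum of the other 8 lay between 471 and 539 in all 6 arrays. Of the epithelial and colonic markers 1 of 8 passed limma's F test over the numbers, 12.5%, close to the 10.3% of all genes. It was CDH17, with means of 7.05, 7.57 and 6.77 (adjusted p = 0.0376). The 3′ minus 5′ difference of the ACTB control probe sets, a measure of RNA integrity, was 0.14 and 0.083 in the arrays numbered 03 and between -0.069 and 0.017 in the other 4. The same difference for GAPDH was -0.12 and -0.074 in the arrays numbered 03 and between -0.080 and -0.055 in the other 4. The part of these in the ENO2, CHGB and SNAP25 values was not tested. The labels did not say what a number stands for, and the numbers have no order.

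By a rule of likeness, the mean absolute difference between mean-centred log2 values over the 6 arrays, the 3 genes most like ENO2 were MANSC1 (0.17), CDKN1C (0.23), a cyclin-dependent kinase inhibitor gene, and CDYL2 (0.29). CDKN1C was at 7.39, 8.40 and 6.46 in the CD44-positive and 6.20, 8.38 and 6.47 in the CD44-negative arrays. It too was highest in both arrays numbered 02. The 3 most like SNAP25 were PCED1A (0.031), AXIN2 (0.032), a scaffold of the beta-catenin destruction complex, and CYP39A1 (0.035), which were all highest in the arrays numbered 03. These genes were picked from 13842 for their likeness, so it is a description.

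**Figure D3:**
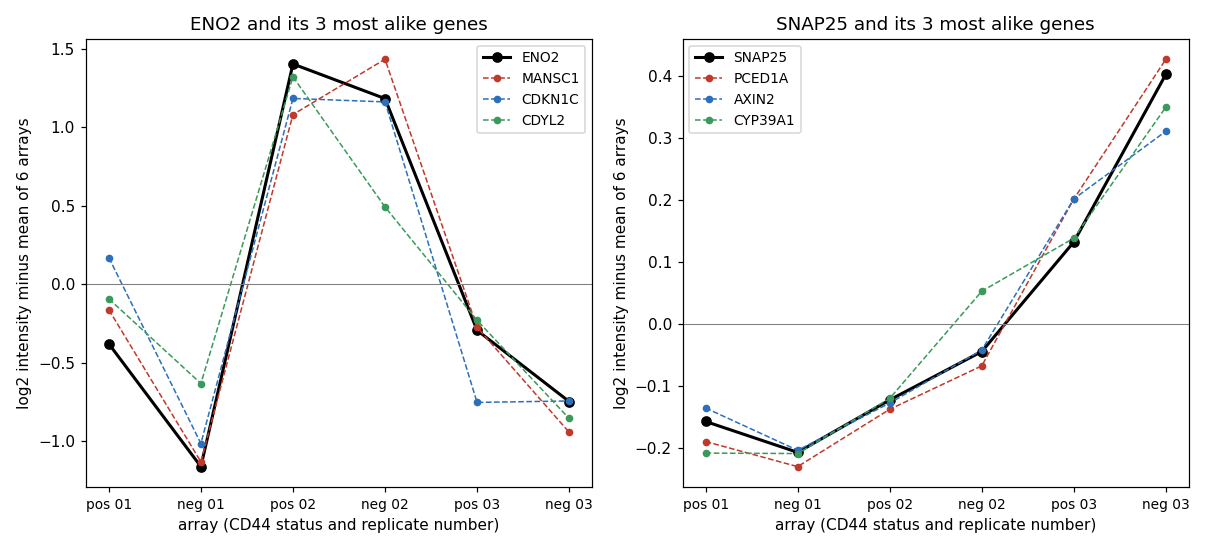
Log2 intensity minus the mean of the 6 arrays (y axis) for each array (x axis, pos and neg for the CD44 sort, then the replicate number), for ENO2 and SNAP25 in black and the 3 genes most like each; the lines only join points of 1 gene. The ENO2 set peaks in the arrays numbered 02 and the SNAP25 set in those numbered 03.

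Of the wider pathway, 7 lists held 152 genes, of which 142 had a probe set and 101 lay above the dim limit. For the CD44 sort 0 of the 101 passed without and 0 with the block. In 3 of them, 2.97%, the groups did not overlap, against 5.43% of all genes tested. In 11, 10.9%, the replicate numbers differed, close to the 10.3% of all genes. Granule cargo, processing enzymes and membrane proteins had 10 of 15 tested members with a positive difference and a median of 0.017, against -0.0025 over all genes tested. Of all 13842 genes tested, 6767 had a positive difference. Whether a list differed from this was not tested.

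CPE, the carboxypeptidase that trims hormones after the convertases have cut, was at 10.21, 10.24 and 9.84 in the CD44-positive and at 9.27, 9.87 and 9.43 in the CD44-negative arrays. It was higher in 3 of 3 pairs, by 0.93, 0.36 and 0.40, although CD44-positive 03 lay just below CD44-negative 02. The difference of 0.57 ± 0.17 (SE, 95% interval 0.16 to 0.97) had an unadjusted p of 0.0116 and did not pass (limma, adjusted p = 1.00, with the block 0.229). PAM, the enzyme that amidates hormones, differed by 0.20 (-0.092 to 0.49). PCSK1N, a granin-like inhibitor of prohormone convertase 1, was lowest in number 03, at 7.20 and 7.44 against 7.66 to 7.97 in the other 4 arrays (F test over numbers, adjusted p = 0.0426). NUCB2, the precursor of nesfatin, was highest there (adjusted p = 0.0291).

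The exocytosis machinery had 14 of 28 tested members with a positive difference and a median of 0.00018. RAB27A, a small GTPase of granule docking, differed by 0.30 (95% interval -0.017 to 0.61) and STX1A, the plasma membrane SNARE partner of SNAP-25, by -0.20 (-0.43 to 0.034). With the replicate block the intervals were 0.11 to 0.48 and -0.39 to -0.0039, and neither gene passed (limma, adjusted p = 0.384 and 0.655). CADPS2, a priming factor of dense-core granules, was lowest in number 02 (means 7.99, 7.23 and 8.03, adjusted p = 0.0105), and SYTL2 and NAPB also passed over the numbers. Of the 36 members with a probe set, 8 were dim, among them SYT1, SYT4 and CADPS.

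Synaptic vesicle proteins had 6 of 15 with a positive difference and a median of -0.021. SYPL2, a gene related to SYP, differed by 0.16 (95% interval -0.18 to 0.51). SV2C, a vesicle glycoprotein, was at 9.10, 9.21 and 9.14 against 8.63, 8.83 and 9.05, without overlap. It differed by 0.31 (0.044 to 0.58) and did not pass (limma, unadjusted p = 0.0278, adjusted p = 1.00, with the block 0.411). DNM1, a dynamin of vesicle retrieval, followed the numbers, with 6.92 in both arrays of 02 and between 5.41 and 5.98 in the other 4 (adjusted p = 0.00735). VAMP1, a vesicle SNARE, and SYNGR1 passed over the numbers as well (adjusted p = 0.0160 and 0.0487).

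**Figure D4:**
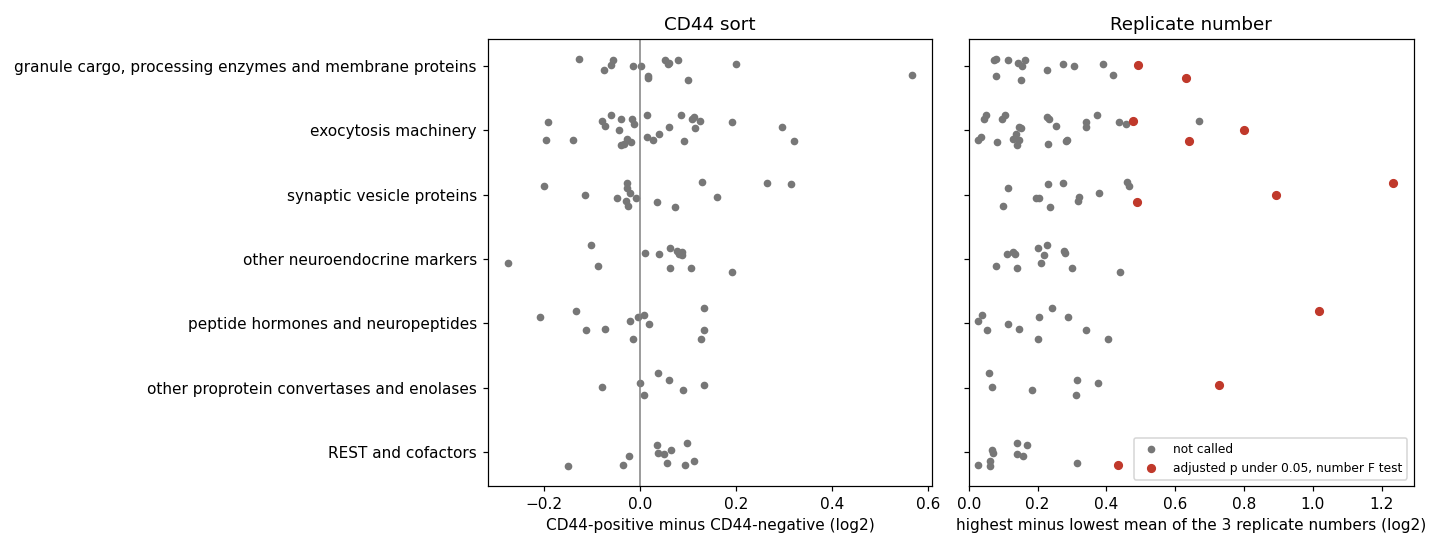
Each point is 1 gene above the dim limit in 7 lists of the regulated secretory pathway; the left panel gives the difference between the CD44 sorts and the right panel the spread between the means of the 3 replicate numbers, both in log2 units. No point passed for the CD44 sort, where CPE lies farthest out at 0.57, and 11 points, in red, passed limma's F test over the numbers.

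Other neuroendocrine markers had 10 of 13 with a positive difference and a median of 0.063. DDC, the decarboxylase that makes serotonin and dopamine, was at 5.56 ± 0.11 against 5.83 ± 0.14 (SD, n = 3), a difference of -0.28 (95% interval -0.52 to -0.030, unadjusted p = 0.0323, limma adjusted p = 1.00), and ISL1, a transcription factor of endocrine cells, stood at 0.19. INSM1, NKX2-2, NEUROG3, ELAVL4, GFI1, DNER and STMN2 were dim. UCHL1, of the same list, was bright in both sorts, between 12.69 and 12.89 over all 6 arrays. Peptide hormones and neuropeptides had 14 of 26 dim, GCG, SST, NTS and VIP among them, and 5 of the 12 tested had a positive difference, with a median of -0.0098. GHRL and TRH, of ghrelin and thyrotropin-releasing hormone, differed by -0.21 and 0.13.

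GAL, the gene of the neuropeptide galanin, was at 11.40, 10.60 and 11.06 in the CD44-positive and at 11.76, 10.52 and 11.19 in the CD44-negative arrays. It was lowest in number 02 and passed over the numbers (adjusted p = 0.0105), but differed by -0.13 between the sorts (95% interval -0.85 to 0.58). Among the other convertases and enolases 5 of 7 had a positive difference, with a median of 0.036. ENO1, the ubiquitous enolase, differed by 0.089 (-0.14 to 0.32) between the sorts and its means over the numbers were 12.52, 12.53 and 12.35 (adjusted p = 0.256), and PCSK4 differed by -0.080. MBTPS1, the site 1 protease, was highest in 02 (adjusted p = 0.0349).

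REST, which represses neuronal and neuroendocrine genes in other cells, was at 8.43, 8.30 and 8.24 in the CD44-positive and 8.42, 8.42 and 8.58 in the CD44-negative arrays. The groups overlapped, and REST differed by -0.15 (95% interval -0.37 to 0.069). Of REST and its cofactors 8 of 11 had a positive difference, with a median of 0.050. KDM1A, a histone demethylase of the complex, differed by 0.11, and SIN3B passed over the numbers (adjusted p = 0.0414).

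In markers of other cells the sorts did not separate by the test either. The summed intensity of 11 epithelial and colonic markers was 4771 to 5208 in the CD44-positive and 4751 to 5582 in the CD44-negative arrays. KRT20, a keratin of differentiated colonocytes, was at 6.67, 7.23 and 7.02 against 6.33, 6.10 and 6.60, a difference of 0.63 (95% interval 0.23 to 1.03, unadjusted p = 0.00663, limma adjusted p = 1.00), and GPA33 stood at 0.10. The list was split, with 4 of 8 tested members positive and a median of -0.0091, and KRT18, CDX2, LGALS4 and KRT8 had values of -0.098, -0.077, -0.084 and -0.040. The fibroblast markers COL1A2 and COL1A1 differed by 0.31 (95% interval 0.094 to 0.53) and -0.23 (-0.48 to 0.013), both without overlap between the groups and in opposite directions. With the replicate block their intervals were 0.16 to 0.47 and -0.42 to -0.049 (limma, adjusted p = 0.243 and 0.531). COL3A1, which makes up most of the fibroblast sum, differed by 0.78 (-0.35 to 1.91), and that sum was 1528 to 3719 against 1214 to 2343. With the replicate block the COL3A1 interval was 0.56 to 1.00, just short of the threshold (limma, adjusted p = 0.0526). Its pairs differed by 1.02, 0.57 and 0.75. Of the 6 tested fibroblast markers 3 had a positive difference, with a median of 0.0078, and PDGFRB, THY1 and DCN had values of -0.13, 0.052 and -0.036. The sum of the 8 markers other than COL3A1 was 471 to 539 in the CD44-positive and 493 to 513 in the CD44-negative arrays. Leukocyte markers PTPRC and CD3E differed by -0.082 and 0.054, with CD14 and LYZ dim, and their sums were 242 to 245 and 237 to 265. Endothelial VWF and PECAM1 differed by 0.091 and 0.0085, with CDH5 and KDR dim, and their sums were 137 to 158 and 142 to 149. The part of these in the SYP, ENO2 and CPE values was not tested.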

How the data were processed

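Per the submitters' processing notes the authors' values were made with RMA, which corrects background, quantile-normalizes the arrays and summarizes probes into probe sets. The authors' deposited values are linear intensity; they were turned to log2 with no pseudocount. RMA makes array distributions alike and compresses differences near background. Its version, its software and a genome build are not given in the sources used here.

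Of 54675 probe sets, 62 were controls; 41091 had 1 gene in the platform annotation, 1801 several and 11721 none, and 41037 of the first were matched to RefSeq (GRCh38.p14) by gene ID. A gene was represented by its probe set with the highest mean. Genes with means under the 30th percentile were left out. Tests used limma 3.58.1 in R 4.3.3 (lmFit, eBayes, two-sided), Benjamini-Hochberg adjusted over all genes, with a threshold of 0.05. They had been checked on simulated data whose replicate number effects were smaller than many seen here. That check therefore says little about the test without the block on these arrays. Errors are limma's SE and 95% intervals. Promoters and figures used Python 3.11.15, pandas 2.3.3, numpy 2.4.6 and matplotlib 3.10.9.

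The labels share numbers without stating a shared culture or day, so the pairing comes from the data: deviations from group means correlated at 0.465, 0.689 and 0.626 between same-numbered arrays. Members and lists were chosen with earlier results of these data known. Named were all members, REST and, in each list, the 2 genes with the smallest unadjusted p for the CD44 sort. EPCAM, CDH1, KRT19, KRT18, CDX2, LGALS4, KRT8, PDGFRB, THY1, DCN, UCHL1, other dim genes and those named for the replicate number (COL3A1, CDH17, PCSK1N, NUCB2, CADPS2, SYTL2, NAPB, DNM1, VAMP1, SYNGR1, GAL, MBTPS1 and SIN3B) were chosen after their values were seen. Alternatives were other normalizations, dim limits, probe set rules, variance models and left-out arrays.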

Additional observations from a re-analysis of the deposited data

How the results depend on the processing

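Of the alternatives that gave a value, none called SYP, SNAP25 or ENO2 for the CD44 sort, in 19 settings at the level of genes and 8 at the level of probe sets. SYP kept its direction in 18 of 18, between 0.12 and 0.22, and ENO2 in 15 of 15, between 0.026 (without CD44-negative 01) and 1.20 (array weights); it was not tested without either array or the pair numbered 02 or at the 50th percentile, where its mean fell under the limit. SNAP25 turned to 0.077 without CD44-negative 03 and ran down to -0.23 without CD44-negative 01; the cause was not tested. Over all genes the CD44 count of 0 became 8 with the replicate block, 2 with no dim filter and 1 with every probe set, with suffix-free probe sets only or with array weights. It was 0 to 1 without single arrays (1 without CD44-positive 03), and 17 to 105 with the block without pairs (17, 61 and 105 without 01, 02 and 03). The replicate block changed no call of the members. The count of 1430 genes that differed by replicate number became 745 with no dim filter, 927 with suffix-free probe sets, 3802 with every probe set, 3149 with a variance trend and robust moderation together and 696 to 2049 without single numbers (696 without 02). ENO2 passed in 9 of 9, all of which kept both arrays numbered 02. For the number, too, ENO2 was not tested without those arrays or at the 50th percentile, so its dependence on them was not tested. The members' count rose from 1 to 2 with quantile normalization, no dim filter, the mean of probe sets, every probe set and a variance trend with robust moderation, and was 1 to 2 without single numbers. The member added to ENO2 was SNAP25, except with no dim filter, where it was CHGB. With every probe set it was 1 of the SNAP25 probe sets. Without number 02 and at the 50th percentile the 1 member called was SNAP25, as ENO2 was not tested. No paired fit was possible for the test of the number itself. The number of arrays and signals near background limit every value of the granins.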
